A study of Mus musculus with 2 samples.

Results

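The 38 genes described here are markers of dividing cells, chosen by name from the 27998 genes counted in the series. They were read in dissociated dorsal skin of wild-type female C57BL/6 mice aged 2 months, from 1 library of skin given topical imiquimod (IMQ) daily for 5 days and 1 library of control skin (Ctrl). Imiquimod is an agonist of the RNA sensor Toll-like receptor 7 that, spread on mouse skin, gives a psoriasis-like inflammation with a thickened epidermis. Both groups were wild type, and how many mice went into a library is not stated in the labels. With 1 library per group there was no replicate and no test, so differences are those of these libraries alone, and every interval is at 95% and covers counting error only.

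Of the 38 genes, 13 act mainly in S phase, 22 in G2 and mitosis (G2/M), and 3 are chromatin or tubulin proteins that are abundant in dividing cells. In S phase the MCM proteins unwind DNA, the ribonucleotide reductase subunits Rrm1 and Rrm2 and the enzymes Tyms and Tk1 supply nucleotides, and Pcna clamps the polymerases to DNA. In G2/M the cyclin-dependent kinase Cdk1 with the cyclins Ccna2, Ccnb1 and Ccnb2 starts mitosis, Aurora and polo kinases build the spindle, kinetochore proteins attach chromosomes to it, and Cdc20 and Ube2c, which work with the anaphase-promoting complex, end it. In resting epidermis division is mostly in the basal layer and the hair follicle, and dermal fibroblasts of adult skin seldom divide.

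S phase genes are known as targets of E2F factors, and G2/M genes as targets of the DREAM complex, which binds a sequence called the cell cycle homology region (CHR), often beside CCAAT boxes. RefSeq promoters of build GRCm38.p6, of 250 bases before to 50 after each start, were matched for 33 of the 38 genes and searched on both strands. The CHR, spelled TTTGAA, was present in 14 of 19 G2/M promoters and 2 of 12 S phase promoters, against 18.1% of 27025 promoters of all genes. An E2F match, spelled TTTCCCGC, TTTGGCGC, TTTCGCGC or TTTGCCGC, was present in 1 of 19 G2/M and 5 of 12 S phase promoters, against 2.32% of all. The CCAAT box was in 17 of 19 and 9 of 12, against 37.9% of all, and CHR and CCAAT box together in 14 of 19 and 2 of 12, against 7.12%. These are matches of letters, and no binding was measured.

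A G2/M pair and an S phase pair are printed because their levels are followed below. Each is the 250 bases before the RefSeq start, 5′ to 3′ on the gene's strand, with CHR, CCAAT and E2F matches of either strand in capitals.
Ube2c, chr2:164769679-164769928, plus strand: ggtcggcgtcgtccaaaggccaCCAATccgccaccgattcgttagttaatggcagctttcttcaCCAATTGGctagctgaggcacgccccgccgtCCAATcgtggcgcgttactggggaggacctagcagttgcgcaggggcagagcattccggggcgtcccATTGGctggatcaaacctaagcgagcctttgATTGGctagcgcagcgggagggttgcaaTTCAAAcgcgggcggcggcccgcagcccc
Cdc20, chr4:118437344-118437593, minus strand: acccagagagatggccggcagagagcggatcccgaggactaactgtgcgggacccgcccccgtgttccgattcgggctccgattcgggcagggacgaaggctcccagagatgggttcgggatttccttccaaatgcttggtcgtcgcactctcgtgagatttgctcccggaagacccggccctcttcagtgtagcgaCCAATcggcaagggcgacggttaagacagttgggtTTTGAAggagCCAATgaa
Mcm5, chr8:75109259-75109508, plus strand: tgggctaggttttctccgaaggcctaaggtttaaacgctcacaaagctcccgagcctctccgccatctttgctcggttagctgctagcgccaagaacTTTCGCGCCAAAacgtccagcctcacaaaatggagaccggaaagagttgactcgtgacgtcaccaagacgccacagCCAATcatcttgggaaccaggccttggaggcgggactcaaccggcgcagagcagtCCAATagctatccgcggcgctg
Mcm6, chr1:128359706-128359955, minus strand: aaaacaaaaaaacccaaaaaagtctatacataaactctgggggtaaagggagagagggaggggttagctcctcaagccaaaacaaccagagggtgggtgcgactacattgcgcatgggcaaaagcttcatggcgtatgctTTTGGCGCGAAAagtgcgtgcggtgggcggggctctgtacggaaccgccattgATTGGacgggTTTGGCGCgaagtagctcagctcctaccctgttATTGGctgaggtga
In Ube2c and Cdc20 the CHR (TTCAAA or TTTGAA in the printed strand) lies close to the start, after the CCAAT boxes (CCAAT or ATTGG) in Ube2c and between them in Cdc20, and neither holds an E2F match. In Mcm5 and Mcm6 E2F matches of opposite strands overlap, and neither holds a CHR.

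Cells with at least 200 genes and at most 10% mitochondrial UMIs (unique molecular identifiers, each standing for 1 captured RNA molecule) were kept. These were 8499 IMQ cells, with a median of 12650 UMIs, and 10297 Ctrl cells, with a median of 9596. The barcode lists of the libraries shared 23 barcodes. Each cell was put in a lineage by its score on marker lists that hold none of the 38 genes, which placed 95.8% of cells, and a class is called X-like. No class held more markers of another lineage than of its own among its 10 leading genes, although the leading 10 of keratinocyte-like cells (Sprr2b and Krt6b among them) and endothelial-like cells (Vwf and Sele) held none of their own list. A class of 26 cells that met the B cell list held none either and was left unnamed.

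A cell was called cycling with at least 2 UMIs of Mki67, Top2a and Cenpf summed. Mki67 codes for the Ki-67 protein on mitotic chromosomes, Top2a for a topoisomerase that untangles them and Cenpf for a kinetochore protein. By this rule 1313 of 8499 IMQ cells (15.4%) and 399 of 10297 Ctrl cells (3.87%) were cycling, a ratio of 3.99 (3.56 to 4.47). The makeup of the libraries differed, with keratinocyte-like cells at 24.96% of IMQ and 15.5% of Ctrl cells, and fibroblast-like cells at 44.6% and 68.7%. The ratio over all cells thus mixes this makeup with cycling within classes, and the part of each was not tested. Keratinocyte-like cells made up 68.7% of the cycling cells in the IMQ library and 74.7% in the Ctrl library, and fibroblast-like cells made up 9.98% and 8.02%. Of neutrophil-like cells, which do not divide, 0 of 278 IMQ cells were called, which allows a share of up to 1.08%. Their median was 3126.5 UMIs, against 25811 in IMQ keratinocyte-like cells, so they set no background for deeper classes. Red blood cell-like cells had medians of 10274 IMQ and 11380.5 Ctrl UMIs. Of these 3 of 115 IMQ cells (2.61%, 0.541 to 7.43%) and 1 of 24 Ctrl cells (4.17%, 0.105 to 21.1%) were called.

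With all UMIs counted, keratinocyte-like cells had the highest share among lineages with at least 50 cells per library. There 902 of 2121 IMQ cells were cycling, or 42.5% (40.4 to 44.7%), and 298 of 1597 Ctrl cells, or 18.7% (16.8 to 20.7%), which is 2.28-fold (2.00 to 2.61). The rule depends on depth, and these cells had a median of 25811 UMIs in the IMQ library against 16840 in the Ctrl library. With every cell thinned to 5000 UMIs the shares were 21.1% and 10.6%, a ratio of 1.99 (1.66 to 2.40). The IMQ share was thus the higher at equal depth too. The first rank among lineages did not hold at equal depth. T cell-like cells thinned to 5000 UMIs, with only the deeper cells left, had 45.1% in the IMQ and 36.4% in the Ctrl library. Thinned to 2000 UMIs keratinocyte-like cells had 10.6% and 5.84%, and T cell-like cells 17.4% and 3.91%.

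In fibroblast-like cells cycling was rare in both libraries and its ratio larger. In the IMQ library 131 of 3791 cells were cycling, or 3.46% (2.90 to 4.09%), and in the Ctrl library 32 of 7071, or 0.453% (0.310 to 0.638%), which is 7.64-fold (5.16 to 11.6). Thinned to 5000 UMIs the shares were 2.28% and 0.321%, and the ratio was 7.12 (4.27 to 12.5). Cycling fibroblast-like cells held more keratinocyte marker UMIs than the others of their class, at 0.226% of UMIs against 0.0275% in the IMQ library and 0.379% against 0.0461% in the Ctrl library. The doublet caller Scrublet marked 14 of the 131 and 9 of the 32. Without the cells it marked the ratio was 9.19 (5.84 to 15.1), and without cells in which keratinocyte markers took at least 0.1% of UMIs it was 9.95 (6.21 to 16.7).

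In vessel cells the cycling share was also the higher in the IMQ library with all UMIs, and the depths differed. Of endothelial-like cells 48 of 170 were cycling in the IMQ library, or 28.2% (21.6 to 35.6%), and 0 of 48 in the Ctrl library, which allows a share of up to 6.25%. This class had under 50 Ctrl cells and was added after its values were seen. Its median depth was 15104 UMIs in the IMQ library and 6668.5 in the Ctrl library. Thinned to 5000 UMIs 24 of 137 and 0 of 31 were cycling, with a lower limit of 1.36 for the ratio, and thinned to 2000 UMIs 12 of 168 and 0 of 45, with a lower limit of 0.744, so that the interval includes equality. Of pericyte/smooth muscle-like cells 16 of 197 were cycling in the IMQ library, or 8.12% (4.71 to 12.9%), and 1 of 317 in the Ctrl library, or 0.315% (0.00799 to 1.75%). Their median depth was 11661 and 6244 UMIs. Thinned to 5000 UMIs 11 of 172 and 0 of 210 were cycling, and thinned to 2000 UMIs 8 of 192 and 1 of 310, a ratio of 12.9 (1.73 to 573). Lymphatic endothelial-like cells had 2 of 128 and 0 of 39, where the 0 allows up to 7.69%.

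Among immune cells the T cell-like class held the most cycling cells. There 108 of 407 IMQ cells were cycling, or 26.5% (22.3 to 31.1%), and 22 of 265 Ctrl cells, or 8.30% (5.28 to 12.3%), a ratio of 3.20 (2.01 to 5.31). T cell-like cells were shallow, and 57.0% of IMQ and 87.5% of Ctrl cells fell below 5000 UMIs. Among those above it, thinned to 5000, the shares were 45.1% of 175 IMQ cells and 36.4% of 33 Ctrl cells, a ratio of 1.24 (0.672 to 2.50) whose interval includes equality. Thinned to 2000 UMIs, which kept 345 IMQ and 230 Ctrl cells, the shares were 17.4% and 3.91%, a ratio of 4.44 (2.19 to 10.2). Natural killer-like cells, with under 50 IMQ cells and added after their values were seen, had 10 of 48 (20.8%) and 1 of 55 (1.82%), a ratio of 11.5 (1.63 to 497.3), and thinned to 2000 UMIs 3 of 45 and 1 of 52, where the interval of 0.278 to 182.0 includes equality.

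In the following 3 classes, and in the muscle satellite-like cells described later, the interval of the ratio includes equality. Macrophage/monocyte-like cells had 26 of 412 cycling in the IMQ library (6.31%, 4.16 to 9.11%) and 3 of 83 in the Ctrl library (3.61%, 0.752 to 10.2%), a ratio of 1.75 (0.535 to 9.01). Dendritic/Langerhans-like cells had 9 of 69 (13.04%, 6.14 to 23.3%) and 10 of 60 (16.7%, 8.29 to 28.5%), a ratio of 0.783 (0.281 to 2.14). Schwann-like cells had 1 of 173 (0.578%) and 2 of 163 (1.23%). The ratio in Schwann-like cells was 0.471 (0.00799 to 9.05). The counts are too small to show that the libraries were alike.

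**Figure D1:**
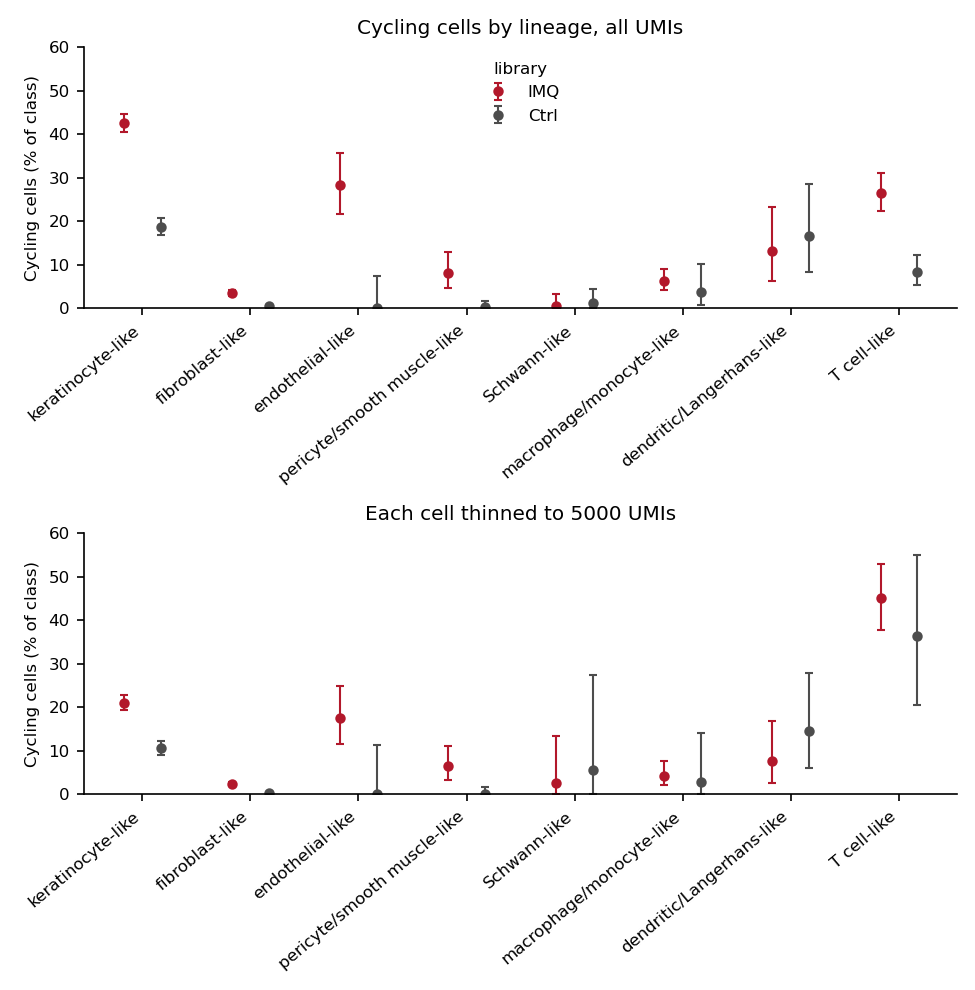
Share of cells with at least 2 UMIs of Mki67, Top2a and Cenpf (percent of the class) in the IMQ library (red, left of each pair) and the Ctrl library (grey, right), with all UMIs above and with every cell thinned to 5000 UMIs below; points are 1 library each and bars exact 95% intervals. IMQ keratinocyte-like cells sit at 42.5% above and 21.1% below, against 18.7% and 10.6% in Ctrl, whereas dendritic/Langerhans-like and Schwann-like intervals overlap.

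Among keratinocyte-like subtypes with at least 50 cells per library the basal cells had the highest share in both libraries and the smallest ratio. Basal-like keratinocytes were cycling in 491 of 812 IMQ cells (60.5%, 57.0 to 63.8%) and 188 of 542 Ctrl cells (34.7%, 30.7 to 38.9%), a ratio of 1.74 (1.47 to 2.07). Suprabasal-like cells, of the layers that normally stop dividing and differentiate, were cycling in 95 of 370 IMQ cells (25.7%, 21.3 to 30.4%) and 48 of 612 Ctrl cells (7.84%, 5.84 to 10.3%), a ratio of 3.27 (2.29 to 4.73). Upper follicle-like cells gave 21 of 119 (17.6%) and 12 of 157 (7.64%), a ratio of 2.31 (1.08 to 5.15). Keratinocyte-like cells that no subtype list claimed gave 257 of 710 (36.2%) and 35 of 251 (13.9%), a ratio of 2.596 (1.82 to 3.81). The few sebaceous-like cells had 14 of 26 (53.8%) and 12 of 17 (70.6%), a ratio of 0.763 (0.327 to 1.81) whose interval includes equality.

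The suprabasal share rested on depth. These cells had a median of 31316 UMIs in the IMQ library and 23664 in the Ctrl library, and thinned to 5000 UMIs only 8 of 352 IMQ cells (2.27%) and 2 of 592 Ctrl cells (0.338%) were called. The basal share was 34.01% and 24.3% when thinned, a ratio of 1.40 (1.13 to 1.74). Thinned to 2000 UMIs it was 14.9% and 13.8%, a ratio of 1.08 (0.802 to 1.47) whose interval includes equality, and 1 of 362 IMQ and 2 of 605 Ctrl suprabasal-like cells were called, a ratio of 0.836 (0.0142 to 16.1). The higher share of IMQ cells in these subtypes was thus not detectable at 2000 UMIs per cell. Both libraries were also given the same makeup of the 4 keratinocyte groups with at least 50 cells per library. The cells that no subtype list claimed were 1 of these groups. This was tried after the data had been seen, and the cycling share was 41.1% in the IMQ library and 19.6% in the Ctrl library.

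Among the fibroblast-like subtypes with at least 50 cells per library the ratios with all UMIs were all above 1. Cell numbers and depths differed widely, with medians of 28508.5 IMQ and 9691 Ctrl UMIs in papillary-type cells and 9223 and 4045 in Gdf10 and Vtn-type cells. Cells with markers of the dermal sheath and of myofibroblasts, the contractile fibroblasts of the follicle wall and of healing skin, had the highest share, with 27 of 173 IMQ cells (15.6%, 10.5 to 21.9%) and 4 of 136 Ctrl cells (2.94%, 0.807 to 7.36%), a ratio of 5.31 (1.85 to 20.9). Cells with Coch-type markers followed with 12 of 140 (8.57%, 4.51 to 14.5%) and 2 of 939 (0.213%, 0.0258 to 0.767%), a ratio of 40.2 (8.96 to 370.2). The abundant Pi16-type interstitial cells, an adventitial-like population described as a reserve of other fibroblasts, had 22 of 1358 (1.62%, 1.02 to 2.44%) and 13 of 3628 (0.358%, 0.191 to 0.612%), a ratio of 4.52 (2.18 to 9.77). Gdf10 and Vtn-type perivascular cells had 10 of 313 (3.19%) and 1 of 355 (0.282%), and papillary-type cells 1 of 60 (1.67%) and 3 of 235 (1.28%), where the interval of the ratio, 0.0249 to 16.3, includes equality. Thinned to 5000 UMIs the ratios were 6.44 (1.55 to 57.0) in dermal sheath and myofibroblast, 43.4 (5.26 to 1996) in Coch-type and 3.38 (1.31 to 9.08) in Pi16-type cells. Gdf10 and Vtn-type cells then had 6 of 221 and 0 of 135, with a lower limit of 0.719, and papillary-type cells 0 of 53 and 1 of 191. Thinned to 2000 UMIs the intervals of dermal sheath and Pi16-type cells excluded equality, and that of Coch-type cells, 0.748 to 847.7, did not.

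The 740 IMQ fibroblast-like cells with high Saa3, of which only 1 was found in the Ctrl library, had 14 cycling cells (1.89%, 1.04 to 3.15%). Both libraries were then given the same makeup of the 6 fibroblast groups with at least 50 cells per library. The cells that no subtype list claimed were 1 of these groups, and the Saa3-high cells were left out. The cycling share was then 3.74% in the IMQ library and 0.473% in the Ctrl library, a ratio of 7.91.

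**Figure D2:**
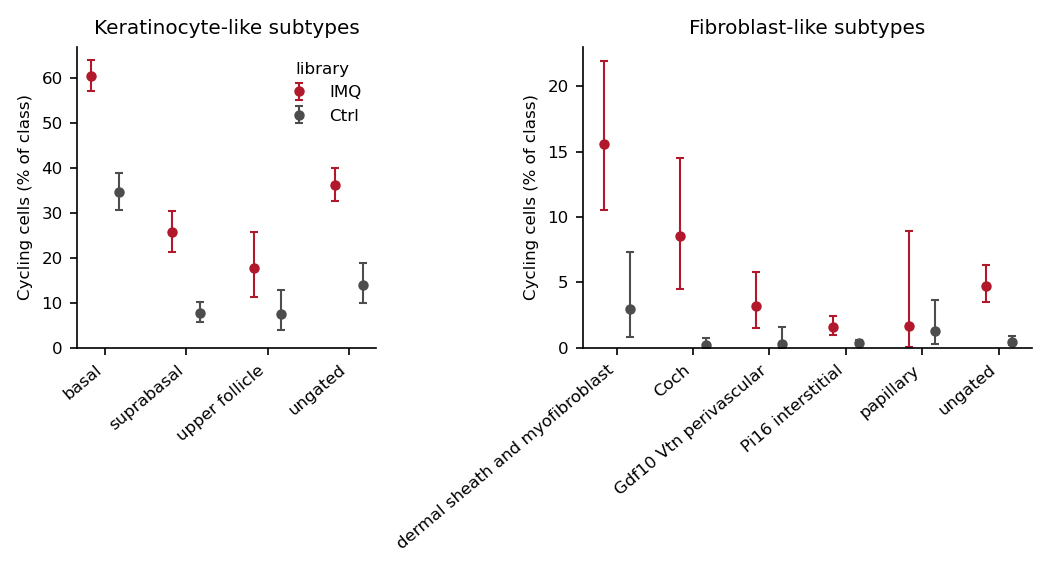
Share of cycling cells (percent of the subtype) in keratinocyte-like subtypes at the left and fibroblast-like subtypes at the right, IMQ red and left of each pair, Ctrl grey and right; points are 1 library each and bars exact 95% intervals, and the panels differ in scale. Basal-like cells sit at 60.5% and 34.7% and dermal sheath and myofibroblast-like cells at 15.6% and 2.94%, with papillary-type intervals overlapping.

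The levels of the genes were then compared lineage by lineage as CPM, the usual scaling of a gene's UMIs to the total UMIs of its class. Genes with 20 or more UMIs in the libraries together are called measured. Higher or lower in the IMQ library stands for a ratio of 2-fold or more with an interval that leaves out equality. CPM values come from 3′ counts and are compared here between libraries, not between genes.

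In keratinocyte-like cells all 38 genes were measured, and 12 were higher and 0 lower in the IMQ library, where 11.3% of 14197 measured genes were higher and 11.5% lower. Their median log2 ratio was 0.90 against 0.02 over all measured genes, and 37 of 38 lay above equality. The S phase genes and the G2/M genes differed in this: 10 of 13 S phase genes were higher, with a median log2 ratio of 1.44, and 2 of 22 G2/M genes, with a median of 0.83.

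Among S phase genes of keratinocyte-like cells the helicase subunit Mcm5 had 37.2 CPM in the IMQ library and 11.4 CPM in the Ctrl library, a ratio of 3.25 (2.93 to 3.62). Mcm3 had 44.8 and 15.3 CPM, Mcm2 had 24.99 and 9.04 CPM, and Hells, a chromatin remodeller, had 45.5 and 15.6 CPM. Mcm6, of the same helicase, had 43.3 and 24.6 CPM, a ratio of 1.77 (1.64 to 1.91) that stays under 2-fold. The histones Hist1h2ap and Hist1h1b had 96.2 and 113.3 CPM in the IMQ library against 31.8 and 41.8 CPM in the Ctrl library. Both belong to clusters of near-identical genes and mostly lack a poly(A) tail, so their counts are uncertain. The replication factor 2810417H13Rik, which RefSeq calls Pclaf and which binds Pcna, had 114.8 and 44.4 CPM. Pcna, which also serves DNA repair, had 67.6 and 63.2 CPM, a ratio of 1.07 (1.02 to 1.13), and was the S phase gene that moved least.

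Among G2/M genes of keratinocyte-like cells Birc5 (survivin, of the chromosomal passenger complex) had 79.3 CPM in the IMQ library and 32.3 CPM in the Ctrl library, a ratio of 2.46 (2.30 to 2.62). The checkpoint kinase Bub1 had 10.4 and 4.77 CPM, a ratio of 2.18 (1.84 to 2.59). These were the 2 that were higher. Top2a, Mki67 and Ube2c did not reach 2-fold, with Top2a at 126.1 and 75.4 CPM, Mki67 at 123.9 and 66.0 CPM, and Ube2c at 116.4 and 69.4 CPM, ratios of 1.67, 1.88 and 1.68. Cenpf had 52.3 and 46.1 CPM, a ratio of 1.14 (1.07 to 1.21), and Kif23, a kinesin of the central spindle, had 16.1 and 17.5 CPM, a ratio of 0.919 (0.832 to 1.02). Kif23 was the only one of the 38 below equality in these cells.

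In fibroblast-like cells 34 of 38 genes were higher and 0 lower in the IMQ library, where 11.8% of 14874 measured genes were higher and 4.43% lower. Their median log2 ratio was 2.45 against 0.28 over all measured genes, and scaling by size factors in place of totals moves every ratio in this class down by 0.28. All 22 G2/M genes were higher, with a median of 2.88, as were 11 of 13 S phase genes, with a median of 1.67. The order of the lists was thus the opposite of that in keratinocyte-like cells.

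The kinase Aurkb had 206 UMIs (3.75 CPM) in IMQ and 20 UMIs (0.273 CPM) in Ctrl fibroblast-like cells, a ratio of 13.7 (8.66 to 23.0). Ube2c had 18.9 and 1.53 CPM, a ratio of 12.4 (10.2 to 15.2), and 2810417H13Rik 17.9 and 1.43 CPM, a ratio of 12.5 (10.2 to 15.5). Cdc20 had 8.59 and 1.13 CPM, a ratio of 7.58 (5.99 to 9.69), and Mki67 had 14.2 and 2.25 CPM, a ratio of 6.29 (5.31 to 7.48). Mcm5 had 7.33 and 1.36 CPM and Mcm6 had 14.8 and 5.13 CPM, ratios of 5.37 and 2.88. The 4 genes that did not pass were Rrm1 (19.7 and 14.8 CPM), Pcna (36.9 and 27.7 CPM), Hmgb2 (100.9 and 63.4 CPM) and the histone variant H2afz (444.5 and 372.5 CPM).

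Free RNA sets a floor under such low levels. Estimated from markers of other lineages, it came to 6.65 of the 40.02 CPM of Mki67, Top2a and Cenpf together in IMQ fibroblast-like cells and 5.38 of the 6.56 CPM in Ctrl cells. With it subtracted 34 genes were still higher and their median log2 ratio was 3.64. The Ctrl counts also rested on few cells, with up to 26.3% of a gene's UMIs in a single cell (Hmmr), against up to 8.44% in the IMQ library (Plk1).

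**Figure D3:**
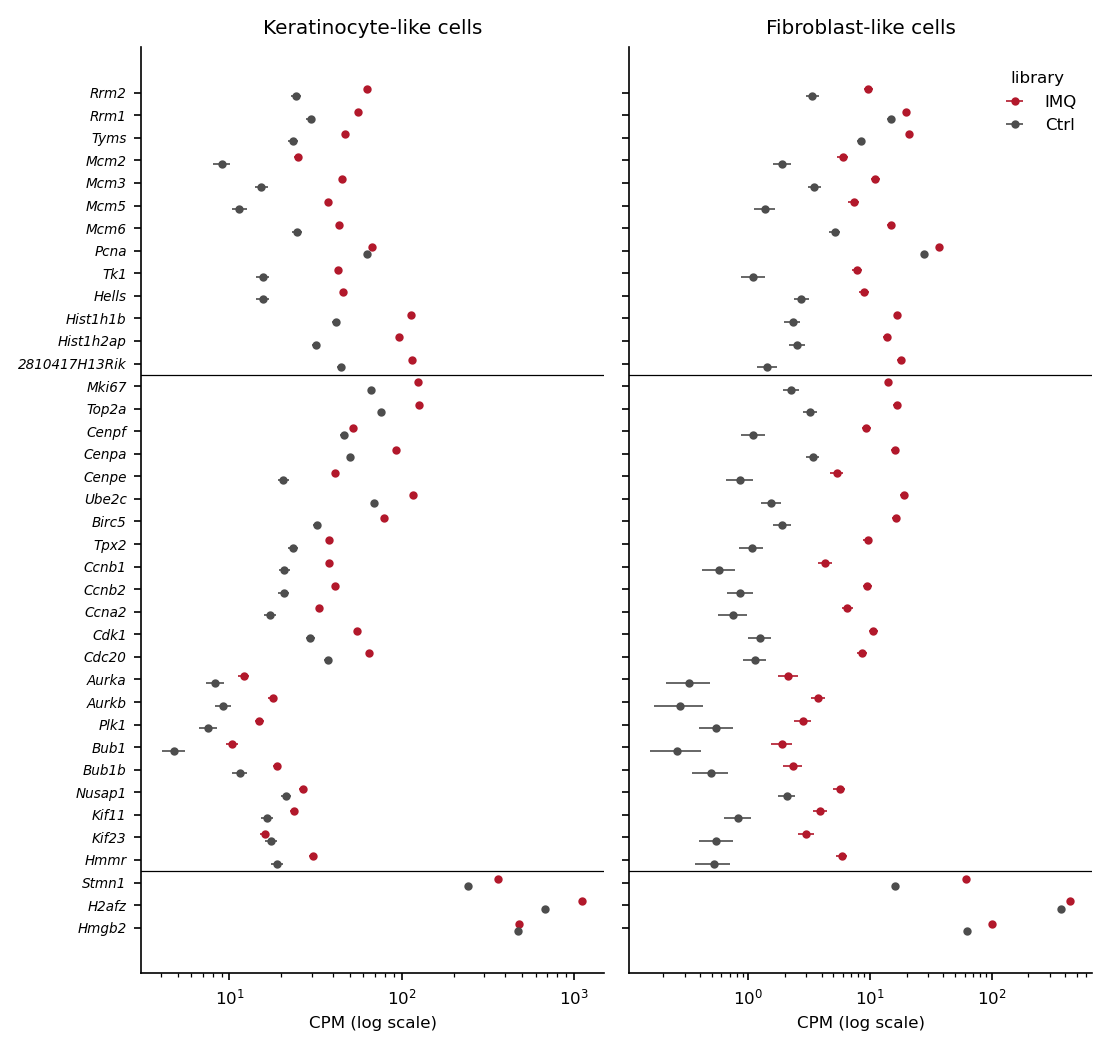
Level of each of the 38 genes (CPM, log axis) in keratinocyte-like cells at the left and fibroblast-like cells at the right, IMQ red and upper of each pair, Ctrl grey and lower; points are 1 library each, bars exact Poisson 95% intervals, and lines part S phase, G2/M and chromatin or tubulin genes. In fibroblast-like cells the gap is wide for Ube2c (18.9 and 1.53 CPM) and narrow for Pcna (36.9 and 27.7 CPM), and in keratinocyte-like cells Kif23 and Hmgb2 nearly coincide.

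In T cell-like cells 22 of 38 genes were higher and 0 lower, where 7.82% of 8514 measured genes were higher and 6.88% lower. The median of their log2 ratios was 1.11. Of the S phase genes 9 of 13 were higher and of the G2/M genes 13 of 22. Hist1h1b had 564 UMIs (252.4 CPM) in the IMQ library and 22 UMIs (22.3 CPM) in the Ctrl library, a ratio of 11.3 (7.41 to 18.2), with 40.9% of its Ctrl UMIs in 1 cell. Mki67 had 252.9 and 102.3 CPM, a ratio of 2.47 (2.00 to 3.09), and Birc5 had 155.8 and 41.5 CPM, a ratio of 3.75 (2.71 to 5.32). Pcna had 111.9 and 127.7 CPM, and Cenpf had 62.2 and 51.7 CPM, a ratio of 1.20 (0.868 to 1.69).

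In endothelial-like cells 27 of 38 genes were higher and 0 lower, where 11.0% of 9479 measured genes were higher and 6.14% lower. Their median log2 ratio was 2.09 against 0.20 over all measured genes, and size factors move the ratios of this class down by 0.19, with 25 genes then higher and 1 lower. Ctrl endothelial-like cells were few, and 16 of the genes had 0 UMIs in them. The 22 G2/M genes had 3153 UMIs in the IMQ library and 15 in the Ctrl library. They thus reached the minimum for measured mainly through IMQ UMIs, and 27 of 38 is not read against the share of all genes. Ube2c had 426 UMIs (144.9 CPM) in the IMQ library against 0 in the Ctrl library, which makes it at least 18.5-fold higher over a floor of 3 counts in that library. Mki67 had 312 and 2 UMIs, or 106.2 and 5.23 CPM, and Cdk1 had 244 and 1 UMIs, or 83.0 and 2.62 CPM, a ratio of 31.7 (5.64 to 1258). Pcna went the other way at 83.4 and 151.7 CPM, a ratio of 0.549 (0.411 to 0.745). Keratinocyte markers took 0.127% of UMIs in the cycling IMQ endothelial-like cells and 0.0119% in the others, and without cells at or over 0.1% the cycling share was 26.4%.

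In pericyte/smooth muscle-like cells 24 of 29 measured genes were higher and 0 lower, where 8.25% of 10006 measured genes were higher and 6.97% lower. All 13 G2/M genes measured there were among them. The 22 G2/M genes had 909 UMIs in the IMQ library and 108 in the Ctrl library. A gene thus reached the minimum for measured mainly through its IMQ UMIs, and 13 of 13 is not read as a separate result. With the minimum at 5 UMIs all 38 genes were measured, of which 32 were higher and 0 lower. Ccna2 had 35 UMIs in the IMQ library and 1 in the Ctrl library, a ratio of 37.3 (6.28 to 1516), and Top2a had 78 and 4 UMIs, a ratio of 20.8 (7.81 to 78.3). Rrm1, at 21.0 and 36.6 CPM, had the lowest ratio, 0.574 (0.397 to 0.822).

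Macrophage/monocyte-like cells had 8 of 31 measured genes higher and 0 lower, where 6.00% of 8028 measured genes were higher. Of these 4 were S phase genes, with Hist1h1b at 150 UMIs in the IMQ library and 1 in the Ctrl library, a ratio of 24.0 (4.24 to 953.6). Mki67 had 39.5 and 78.2 CPM, a ratio of 0.505 (0.336 to 0.777). Dendritic/Langerhans-like cells had 0 of 21 measured genes higher and 8 lower, where 7.78% of 5821 measured genes were higher and 4.84% lower. Rrm2 had 5 UMIs (6.03 CPM) in the IMQ library and 19 UMIs (34.6 CPM) in the Ctrl library, a ratio of 0.174 (0.0508 to 0.482), and Mki67 had 47.0 and 131.3 CPM, a ratio of 0.358 (0.236 to 0.536). Schwann-like cells had 11 measured genes, of which 0 were higher or lower, where 3.52% of 7040 measured genes were higher.

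Across these 8 lineages Birc5, Hist1h1b, Hist1h2ap, Tk1 and 2810417H13Rik were each higher in 6. Pcna, H2afz, Hmgb2 and Rrm1 were measured in all 8 and higher in 0. Hist1h1b, 2810417H13Rik and Rrm1 were each lower in dendritic/Langerhans-like cells. The share of all genes higher in 6 lineages was not computed, so these counts are a description only. Of muscle satellite-like cells, the stem cells of skeletal muscle, 0 of 85 were cycling in the IMQ library, which allows up to 3.53%, and 2 of 61 in the Ctrl library, a ratio with an interval of 0 to 3.82. Only 8 of the 38 genes were measured there, of which 5 were lower, where 4.02% of 4001 measured genes were lower. Of these Ube2c had 0 UMIs in the IMQ library and 25 in the Ctrl library, Top2a 1 and 22, Cenpa 1 and 19, and Cdk1 3 and 17. These G2/M genes reached the minimum for measured mainly through Ctrl UMIs, so 5 of 8 is not read against the share of all genes. The remaining lower gene, Hmgb2, had 34 and 85 UMIs.

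**Figure D4:**
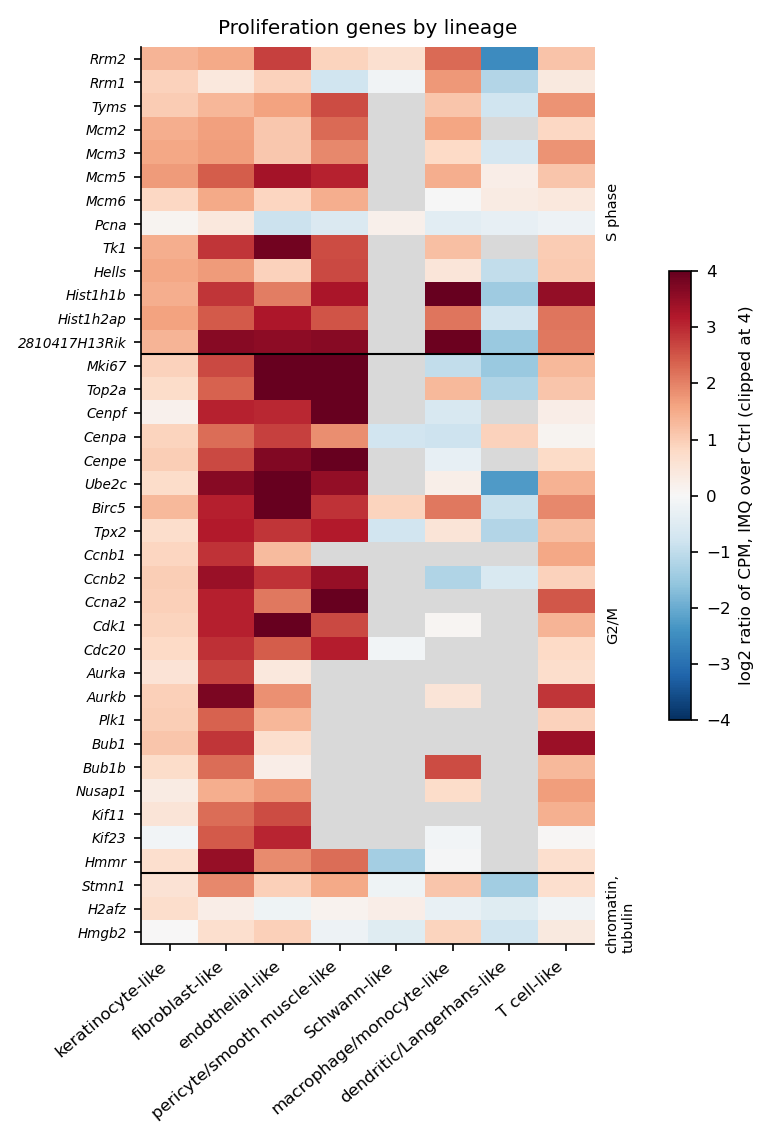
Log2 ratio of CPM, IMQ over Ctrl, of each of the 38 genes (rows, in S phase, G2/M and chromatin or tubulin blocks) in 8 lineages (columns); red is higher in IMQ, blue higher in Ctrl, grey not measured, colours end at 4, and genes with 0 Ctrl UMIs are drawn at their lower bound. The fibroblast-like and endothelial-like columns are red through the G2/M block, the pericyte/smooth muscle-like column is red in its 13 measured G2/M genes, the dendritic/Langerhans-like column is mostly blue where measured, and the rows of Pcna and H2afz are pale.

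S phase and G2/M genes were then set against each other. Summed over the lists, keratinocyte-like cells had 0.742 S phase UMIs per G2/M UMI in the IMQ library (0.734 to 0.751) and 0.561 in the Ctrl library (0.549 to 0.573). T cell-like cells had 0.729 (0.696 to 0.763) and 0.551 (0.495 to 0.613). Fibroblast-like cells had 1.08 (1.05 to 1.11) and 2.97 (2.82 to 3.13). Pericyte/smooth muscle-like cells had 0.762 (0.690 to 0.843) and 3.31 (2.66 to 4.14), and endothelial-like cells 0.629 (0.594 to 0.665) and 7.4 (4.30 to 13.7). Macrophage/monocyte-like cells had 1.16 (1.06 to 1.29) and 0.525 (0.381 to 0.718), Schwann-like cells 1.09 (0.825 to 1.43) and 0.583 (0.421 to 0.803), and dendritic/Langerhans-like cells 0.809 (0.684 to 0.956) and 0.814 (0.698 to 0.949). The summed balance was thus lower in the IMQ library in fibroblast-like and both vessel classes. It was higher in keratinocyte-like, T cell-like, macrophage/monocyte-like and Schwann-like cells. UMIs of the same cell are not independent, so the intervals are too narrow where few cells were cycling. Schwann-like cells had 1 cycling IMQ cell and 2 cycling Ctrl cells. In the Ctrl library macrophage/monocyte-like cells had 3, pericyte/smooth muscle-like cells 1 and endothelial-like cells 0. In the classes with so few cycling cells the balance is not read as a result about the class.

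Pcna and Rrm1, which non-dividing cells also express, made up 29.5% of the S phase UMIs of IMQ and 55.7% of those of Ctrl fibroblast-like cells. With 7 S phase genes that resting cells mostly lack (Rrm2, Tyms, Tk1, Hells, Hist1h1b, Hist1h2ap and 2810417H13Rik) against the 19 G2/M genes outside the cycling rule, fibroblast-like cells had 0.702 (0.677 to 0.727) in the IMQ library and 1.14 (1.06 to 1.23) in the Ctrl library. In keratinocyte-like cells the same measure was 0.678 and 0.451, and in T cell-like cells 0.710 and 0.327. In endothelial-like cells it was 0.516 and 1.92, and in macrophage/monocyte-like cells 0.937 and 0.149. In pericyte/smooth muscle-like cells the values, 0.566 (0.499 to 0.641) and 0.684 (0.493 to 0.942), had intervals that overlap, as they did in Schwann-like cells, at 0.418 (0.278 to 0.616) and 0.200 (0.113 to 0.334). In dendritic/Langerhans-like cells they were 0.534 (0.427 to 0.666) and 0.843 (0.694 to 1.02).

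Cell by cell, 65.2% of IMQ and 30.3% of Ctrl keratinocyte-like cells had at least 2 UMIs of the 7 S phase genes, a ratio of 2.15 (1.94 to 2.39). At least 2 UMIs of the 19 G2/M genes were in 57.0% and 27.8%, a ratio of 2.05 (1.84 to 2.29). Cells with both made up 47.6% and 17.2% of the class. In fibroblast-like cells 11.1% and 2.602% had the S phase genes, a ratio of 4.28 (3.59 to 5.11), and 6.52% and 1.32% the G2/M genes, a ratio of 4.95 (3.89 to 6.36). The G2/M set is longer and the cells differ in depth, so the shares of the sets are not to be read against each other within a library.

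At 5000 UMIs per cell 33.8% of IMQ and 11.5% of Ctrl keratinocyte-like cells had the S phase genes, and 29.98% and 12.7% the G2/M genes. In fibroblast-like cells the thinned shares were 3.95% and 0.877% for the S phase genes and 3.69% and 0.607% for the G2/M genes. T cell-like cells had 29.0% and 9.06% with S phase genes and 45.7% and 29.8% with G2/M genes before thinning. Thinned, they had 48.6% and 45.5% with S phase genes and 55.4% and 63.6% with G2/M genes, among 175 IMQ and 33 Ctrl cells.

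**Figure D5:**
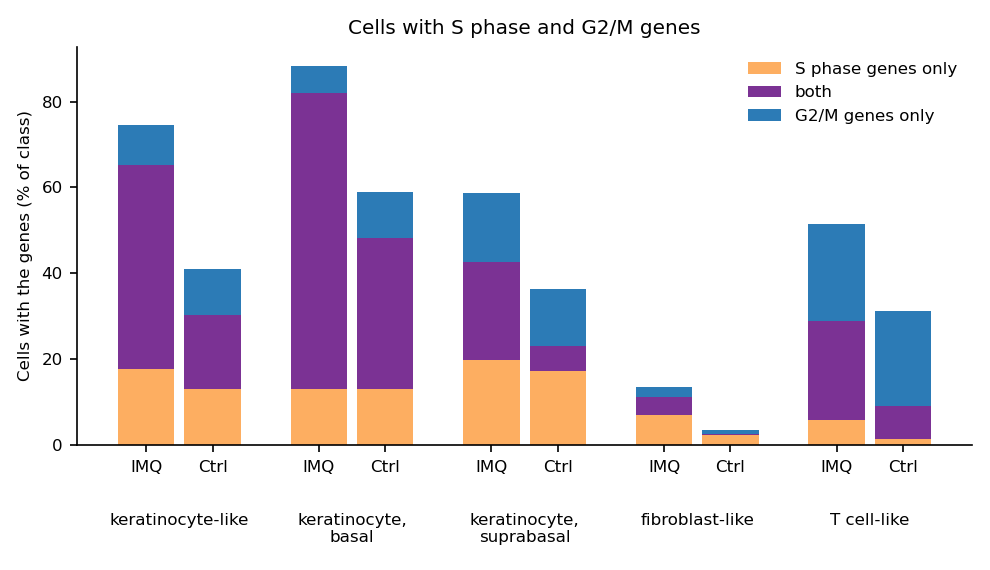
Share of cells (percent of the class, stacked from 0) with at least 2 UMIs of 7 S phase genes only (orange), of 19 G2/M genes only (blue) or of both (purple), with all UMIs, IMQ left and Ctrl right of each pair, 1 library each. Cells with both make up 47.6% of IMQ and 17.2% of Ctrl keratinocyte-like cells, and 4.12% and 0.368% of fibroblast-like cells.

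The genes differed in how closely they kept to cycling cells. The median ratio of CPM in cycling over other cells, across the 35 genes outside the rule, was 14.4 in IMQ and 25.7 in Ctrl keratinocyte-like cells, and 79.0 and 98.3 in fibroblast-like cells. Cenpa, the centromeric histone, had 315.2 CPM in cycling and 327.9 CPM in other IMQ T cell-like cells, and 479.0 and 265.2 CPM in the Ctrl library. A UMI of it was in 44.8% of IMQ and 39.1% of Ctrl T cell-like cells outside the rule. It was also seen in 53.3% of non-cycling IMQ and 18.0% of non-cycling Ctrl dendritic/Langerhans-like cells. Hmgb2, a chromatin protein, was seen in 90.3% of the 278 IMQ neutrophil-like cells, none of them cycling. Ube2c was seen in 69.6% and Nusap1 in 42.0% of 112 non-cycling IMQ red blood cell-like cells, against 26.1% and 4.35% of 23 Ctrl cells. Free RNA alone would give 6.46 CPM of Ube2c and 1.57 CPM of Nusap1 in IMQ red blood cell-like cells, where the non-cycling cells had 197.9 and 69.0 CPM. It would give 8.38 and 2.99 CPM in Ctrl cells, which had 26.3 and 2.92 CPM, so that Nusap1 was at background there. For Cenpa it would give under 1 CPM in T cell-like and dendritic/Langerhans-like cells of either library.

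Levels within cycling cells are given as a description, since these cells were picked by 3 G2/M genes at a fixed number of UMIs. Cycling keratinocyte-like cells had a median of 34797.5 UMIs in the IMQ library and 25628 in the Ctrl library, so the same number of UMIs is a smaller share of an IMQ cell, and the part of this in the ratios was not tested. In cycling keratinocyte-like cells 12 of 13 S phase genes were above equality with intervals that exclude it, with a median ratio of 1.505, and 17 of 19 G2/M genes outside the rule were below equality, 10 of them with such intervals, with a median of 0.913. Rrm2 had 93.8 CPM in IMQ and 47.8 CPM in Ctrl cycling keratinocyte-like cells, a ratio of 1.962 (1.78 to 2.16), and Kif23 had 27.4 and 57.2 CPM, a ratio of 0.480 (0.433 to 0.532). In cycling fibroblast-like cells both lists were above equality, in 13 of 13 and 19 of 19 genes, with medians of 1.65 and 1.79. Ube2c was at the top with 321.4 and 124.7 CPM, a ratio of 2.58 (2.05 to 3.29). The 32 Ctrl cycling fibroblast-like cells held the higher share of doublet calls and keratinocyte marker UMIs given above, and the part of these in the ratios was not tested.

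Genes of the same pathways outside the 38 were read from lists of named genes. Of 30 other S phase genes 12 were higher in keratinocyte-like cells and 17 in fibroblast-like cells, and of 40 other mitotic genes 7 and 35, with a single one lower, Espl1 in fibroblast-like cells (1.04 CPM in IMQ and 2.54 CPM in Ctrl). Over all measured genes 11.3% were higher and 11.5% lower in keratinocyte-like cells, and 11.8% and 4.43% in fibroblast-like cells. The 7 of 40 mitotic genes in keratinocyte-like cells were thus not far above the share of all genes. The replication genes Pole and Chaf1b led the first list in keratinocyte-like cells, with ratios of 2.597 (2.09 to 3.25) and 2.52 (2.21 to 2.89). The phosphatase Cdc25c, which activates Cdk1, led the second in fibroblast-like cells, with 65 and 4 UMIs and a ratio of 21.7 (8.07 to 81.9).

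Of 20 regulators of cycle entry 3 were higher in keratinocyte-like cells, a share near the 11.3% of all measured genes. Among them Mybl2, a transcription factor of the G2/M programme, had 8.14 CPM in the IMQ library and 2.01 CPM in the Ctrl library, a ratio of 4.05 (3.16 to 5.26). In fibroblast-like cells 6 were higher, against 11.8% of all measured genes. Among them were Mybl2 with a ratio of 4.81 (2.82 to 8.62) and Foxm1, which drives mitotic genes, with 3.97 (2.89 to 5.53). In T cell-like cells 5 of 18 were higher and 3 lower, against 7.82% and 6.88% of all measured genes. The 3 lower were the D-type cyclins Ccnd1 (9.40 and 37.5 CPM) and Ccnd2 (243.5 and 646.4 CPM) and the growth regulator Myc (10.7 and 40.5 CPM). In endothelial-like cells 3 of 17 were higher and 2 lower, against 11.0% and 6.14% of all measured genes. Ccnd1 (232.0 and 70.6 CPM) was among the higher, and the lower were Ccnd2 (80.3 and 450.0 CPM) and Myc (78.3 and 235.4 CPM). In pericyte/smooth muscle-like cells 2 of 12 were higher, against 8.25% of all measured genes. These were Ccnd1 (111.1 and 18.9 CPM) and Cdc25a (13.7 and 5.63 CPM). With so few genes, the counts in endothelial-like and pericyte/smooth muscle-like cells are not read as a result about the list.

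Of 15 measured brakes of the cycle 1 was higher and 2 lower in keratinocyte-like cells, where 2 of 15 is a share near the 11.5% of all measured genes that were lower. The inhibitor Cdkn1a (p21) was lower there, with 275.4 CPM in the IMQ library and 905.8 CPM in the Ctrl library, a ratio of 0.304 (0.299 to 0.310). Cdkn1a was lower too in endothelial-like cells (288.9 and 978.4 CPM), in pericyte/smooth muscle-like cells (206.0 and 558.3 CPM) and in T cell-like cells (201.4 and 424.5 CPM). It was not called lower in fibroblast-like, macrophage/monocyte-like, dendritic/Langerhans-like, Schwann-like or muscle satellite-like cells, where 0 measured brakes were lower. Of 14 measured brakes 2 were higher and 2 lower in endothelial-like cells, against 11.0% and 6.14% of all measured genes. In pericyte/smooth muscle-like cells 0 of 14 were higher and 2 lower, against 8.25% and 6.97%. In T cell-like cells 1 of 14 was higher and 2 lower, against 7.82% and 6.88%. The brakes as a list are thus not read as lower. Cdkn2b was also lower in keratinocyte-like cells (10.6 and 31.4 CPM), while Gas1, a growth arrest protein of the cell surface, was higher there (215.3 and 41.9 CPM), a ratio of 5.13 (4.87 to 5.42). In fibroblast-like cells 2 of 16 brakes were higher and 0 lower, near the 11.8% of all measured genes that were higher. These were Cdkn1c with 168.8 and 69.9 CPM, a ratio of 2.41 (2.33 to 2.50), and Cdkn2a with 3.58 and 1.61 CPM, a ratio of 2.23 (1.76 to 2.82).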

How the data were processed

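Each group was 1 droplet-based 3′ single-cell library. The authors deposited raw UMI counts for each gene in each barcode. Cell Ranger 5.0.0 wrote the matrices, per the file headers, whereas the submitters' processing notes name Cell Ranger 3.0.2 with Seurat 2.0, and mm10 as the build. Every listed barcode had at least 500 UMIs. The libraries held 144054978 UMIs in 9414 barcodes (IMQ) and 123088680 UMIs in 10857 barcodes (Ctrl). Gene positions were those of GENCODE M21, which matched 27645 of 27998 gene IDs.

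The members, marker lists and gene lists were chosen with earlier results of these data known. Each marker was scaled to the mean of its top 50 cells, and a cell was gated to a lineage when its mean score reached 0.15 and 1.25 times that of the best other family of lineages. Of 217 markers 4 were not found. Subtypes were gated likewise within keratinocyte-like and fibroblast-like cells. No doublet caller was used in the main values, and mixed cells can pass the gate. Scrublet, an alternative, called 1.29% of IMQ and 4.10% of Ctrl cells, against 6.80% and 8.24% expected.

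UMIs were summed per class and library. CPM have exact Poisson intervals, shares exact Clopper-Pearson intervals and ratios exact conditional binomial intervals, at 95%. A ratio against 0 counts used a floor of 3 counts per library. Thinning drew 5000 or 2000 UMIs per cell and left out shallower cells. Free RNA was the median level, relative to the library, of other lineages' markers with at least 100 UMIs. With 1 library per group no test was made. The rule for named genes took those with the highest IMQ level, the largest or smallest ratio, or a direction against their list, and up to 4 extremes of each other list. Other genes were named after their values were seen. Python 3.11.15, scanpy 1.11.5, scipy 1.17.1 and numpy 2.4.6 were used.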

Additional observations from a re-analysis of the deposited data

Results flagged for a closer look

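Dendritic/Langerhans-like cells went against keratinocyte-like, fibroblast-like and T cell-like cells in the cycling share. It was 13.04% in the IMQ library and 16.7% in the Ctrl library, a ratio of 0.783 (0.281 to 2.14), where the other 3 lineages had ratios above 1. The difference was not tested, and its interval includes equality.

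Cells that no lineage list claimed were counted among all cells but were used in no comparison by lineage. Of these 47 of 363 IMQ cells (12.9%, 9.67 to 16.8%) and 26 of 418 Ctrl cells (6.22%, 4.10 to 8.98%) were cycling, a ratio of 2.08 (1.26 to 3.50).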

How the results depend on the processing

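Of the alternative values 192 stayed within the main interval, or within 1.5 times for counts, 25 moved and 1 reversed. A change of direction was counted as reversed only where the main interval excluded equality. The median log2 ratio of members in Schwann-like cells, -0.14, was 0.02 at a minimum of 50 UMIs. Without the highest cell of each gene it was 0.11, and neither was counted as reversed. No paired analysis was possible because each group had 1 library. Values below are log2 ratios unless said otherwise.

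Counting cells with at least 1 UMI gave 1.56 for all cells, 0.76 for keratinocyte-like and 2.18 for fibroblast-like cells, against 2.00, 1.19 and 2.93. The 5 other genes (Ube2c, Birc5, Cdk1, Ccna2 and Tpx2) gave 2.26 for all cells and 1.41 for keratinocyte-like cells. Thinning to 5000 UMIs gave 0.99 for keratinocyte-like, 0.31 for T cell-like, 0.48 for basal and 2.75 for suprabasal cells. Thinning to 2000 UMIs gave 0.86 for keratinocyte-like and -2.20 for dendritic/Langerhans-like cells. The IMQ endothelial-like share, 28.2%, was 44.1% at 1 UMI, 21.2% at 3 UMIs, 17.5% and 7.14% thinned to 5000 and 2000 UMIs, and 35.8% in Leiden clusters. For pericyte/smooth muscle-like cells 4 settings left 0 Ctrl cycling cells and gave no ratio, as did Gdf10-type cells when thinned.

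Of member levels, the fibroblast-like median was 3.64 with free RNA subtracted, against 2.45. In pericyte/smooth muscle-like cells 15 members were higher at a minimum of 50 UMIs, against 24, with fewer members measured. In dendritic/Langerhans-like cells 1 was higher without the highest cell of each gene, against 0. S phase UMIs per G2/M UMI moved to 0.24 in keratinocyte-like cells and -1.55 in fibroblast-like cells when thinned, against 0.40 and -1.45, and to -1.56 in fibroblast-like cells without Scrublet doublets. Thinned shares gave 1.55 and 1.24 for keratinocyte-like cells with S phase and G2/M genes, 0.10 for T cell-like cells with S phase genes, and -0.20 for those with G2/M genes, which reversed from 0.62. Thinning keeps only the deeper cells and so fewer of them, and other causes were not tested. Equal makeup of the groups with at least 50 cells per library, tried after seeing the data, gave 1.06 for keratinocyte-like and 2.98 for fibroblast-like cells.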
